A study of Mus musculus with 12 samples.

Results

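The genes of cholesterol and fatty acid synthesis, their regulators and the genes of sterol efflux were followed in mouse bone marrow-derived macrophages. The set held 37 genes named for their known roles, and a gene was measured where a probe set of the array was assigned to it alone. By that rule 34 of the 37 were measured, among 12393 genes in all. They were 17 of 18 sterol pathway enzymes, 5 of 6 genes of SREBP control, all 7 listed genes of fatty acid synthesis, 4 of 5 genes of LXR signalling and efflux, and the oxysterol enzyme Ch25h. Acat2, Insig1 and Nr1h2 were not analysed here.

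All cells came from 129-SvEv-Tac mice and lacked Il10, so the controls made no IL-10 of their own. One genotype, written p50-/-IL10-/-, also lacked p50, the NF-kB subunit made from the precursor p105, and the other, written IL10-/-, kept it. Cultures of each genotype received LPS (a bacterial cell wall component, 1 ng/ml) together with IL-10 (an anti-inflammatory cytokine, 0.3 ng/ml), LPS alone, or nothing, and RNA was taken at 4 hours. By the labels, all cells were cultured for 5 days with 30% L-cell medium and 10% serum. The 6 groups had 2 arrays each, labelled as biological replicates. The sources used here do not say how many mice gave the marrow or whether marrow was pooled, and the genotypes rest on the labels.

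Cholesterol is built from acetyl-CoA through mevalonate, squalene and lanosterol. When sterol in the endoplasmic reticulum is low, the carrier protein SCAP escorts SREBP transcription factors to the Golgi, where they are cut and released to switch on the genes of sterol and fatty acid synthesis, and INSIG proteins hold SCAP back when sterol is plentiful. Oxysterols act the other way: they retain SCAP through INSIG and activate LXR, a nuclear receptor that turns on genes of cholesterol export. In macrophages these routes are known to be tied to inflammatory signalling, and the oxysterol-making enzyme Ch25h is known as a target of interferon and Toll-like receptor signals.

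Values are the deposited log2 intensities, in which 1 unit is a 2-fold difference. Levels of different genes are not compared, because each probe set has its own brightness. A gene is said to have changed when limma's adjusted p was under 0.05, and values after ± are SE. Each call was refitted 4 times, each time without 1 of the 4 arrays compared, and for a call described singly the text gives how many of these refits lost it, or the array that ended it. A singly described member or lipid gene call with no such remark held in all 4. The array medians lay between 6.92 and 6.96, and the replicate arrays of a group correlated at 0.992 to 0.997 across genes. A group mean under 5.60, the highest lower quartile of any array, is called dim, and its size and fold are uncertain. Acaca and Scd1 were dim in all 6 groups and Ch25h in unstimulated IL10-/- cells, and the other 31 members were dim in none. All 8 macrophage markers were above this limit, with list means of 11.91 to 12.09, and the 2 measured adipocyte markers, Adipoq and Cidec, were below it on every array (4.03 to 4.44).

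The plot of all members by array gives every value relative to unstimulated IL10-/- cells.

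**Figure D1:**
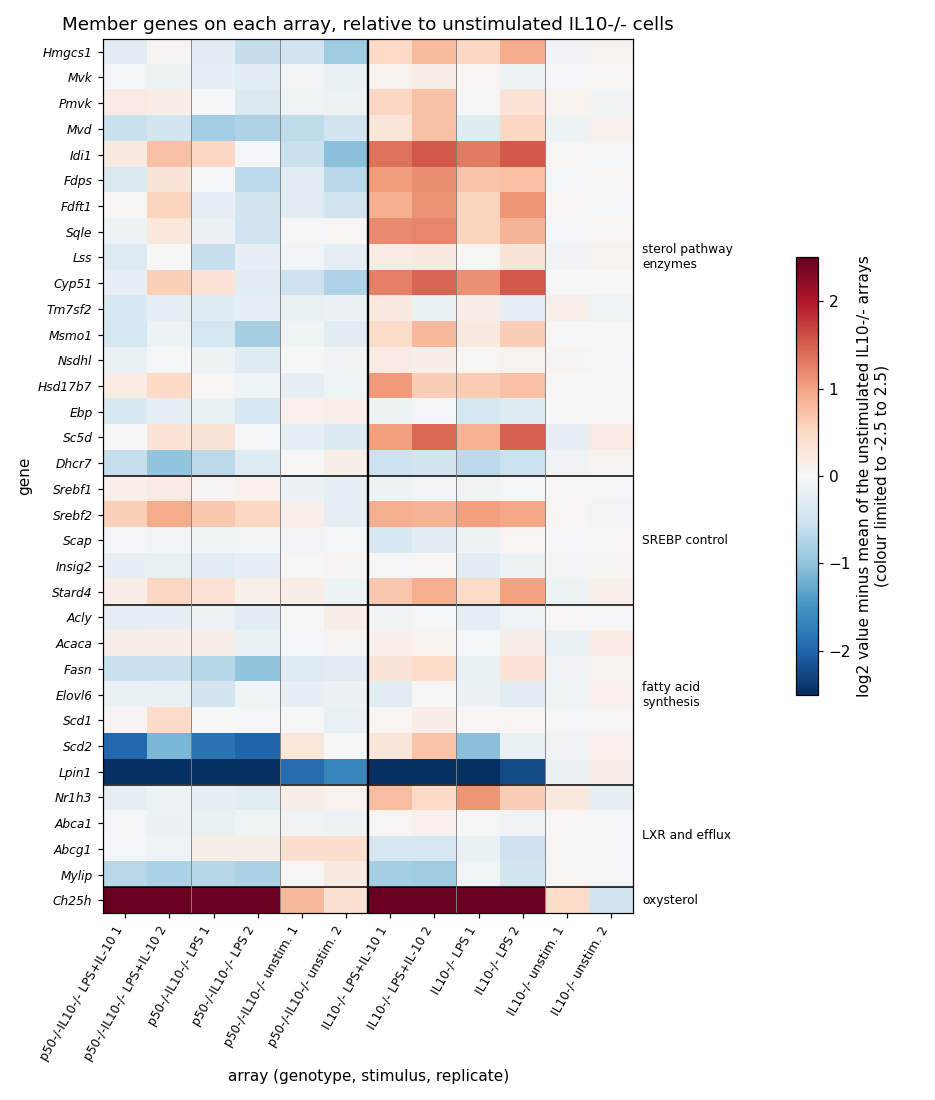
Each row is 1 of the 34 measured genes, grouped by step, and each column is 1 array, with p50-/-IL10-/- arrays on the left and IL10-/- arrays on the right. Colour gives the log2 value minus the mean of the unstimulated IL10-/- arrays (colour limited to 2.5 either way). Among the 17 sterol enzymes, 14 had their highest group mean in IL10-/- cells given LPS+IL-10. Some did so by little, such as Cyp51 (9.34, against 9.33 with LPS) and Idi1 (9.95, against 9.91). Between these 2 groups limma called 0 of the 17. The share of all genes highest in this group was not computed.

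The sterol pathway enzymes were lower without p50 in stimulated cells. With LPS, 11 of 17 were lower in p50-/-IL10-/- than in IL10-/- cells and none was higher, where 6.72% of all genes were called lower and 5.66% higher. With LPS+IL-10, 12 of 17 were lower and none higher, where 10.4% of all genes were called lower and 7.58% higher. At an unadjusted p under 0.05, limma also had 0 of the 17 higher under either stimulus, where 15.6% of all genes were higher with LPS+IL-10 and 10.6% with LPS. Over all 34 members, 15 were lower and 4 higher with LPS+IL-10 and 15 lower and 2 higher with LPS, where 18% and 12.4% of all genes were called in either direction. The median log2 difference of the 17 was -0.93 with LPS and -0.72 with LPS+IL-10, and that of all genes was -0.02 and 0.04. The 9 enzymes with differences of -0.72 or below under both stimuli covered most of the route: Hmgcs1, Mvd, Idi1, Fdps, Fdft1, Sqle, Cyp51, Msmo1 and Sc5d.

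In unstimulated cells no sterol enzyme was called by limma, where 2.57% of all genes were called (1.26% higher, 1.31% lower). At an unadjusted p under 0.05, 4 of the 17 enzymes were lower without p50 and none higher, where 7.39% of all genes were lower and 6.43% higher. The median difference of the 17 was -0.16, and 15 of them were negative, as were 6680 of all 12393 genes. Hmgcs1 (-0.69 ± 0.187, adjusted p = 0.097) and Idi1 (-0.81 ± 0.218, adjusted p = 0.0947) had the smallest adjusted p values.

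**Figure D2:**
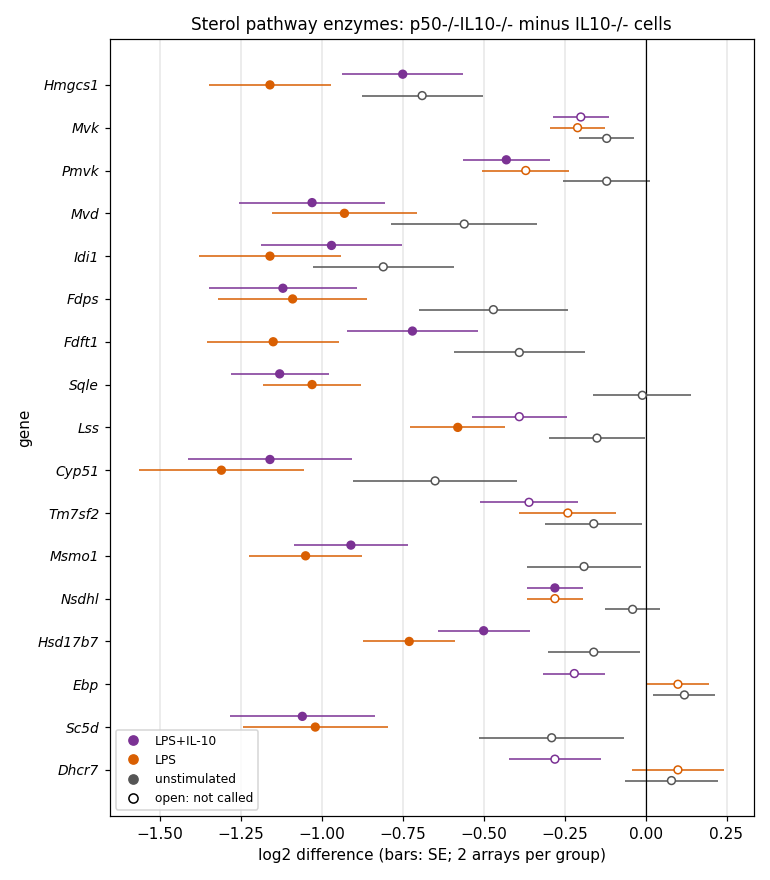
Points are log2 differences of p50-/-IL10-/- minus IL10-/- cells for the 17 sterol pathway enzymes in pathway order, bars are SE (2 arrays per group), and open points were not called. The stimulated differences reach -1.31 (Cyp51 with LPS), and all unstimulated points are open.

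Promoter sequence of 4 of these enzymes and of Srebf2, the gene of the SREBP best known for the sterol pathway, is printed because these enzymes were among those lower together without p50 and Srebf2 is known to act on them. Each run is the 250 bases before the annotated start in RefSeq (GRCm38.p6), read 5′ to 3′ on the gene's strand. Capitals mark 2 motifs searched on both strands: a sterol element, TCACNCCA, the kind of site SREBPs are known to bind, and the CCAAT box, the kind of site the factor NF-Y binds, which reads ATTGG on the other strand. The regions are chr13:119690101-119690350 (plus strand) for Hmgcs1, chr13:8885356-8885605 (plus) for Idi1, chr5:4104698-4104947 (minus) for Cyp51, chr8:64733579-64733828 (minus) for Msmo1 and chr15:82147019-82147268 (plus) for Srebf2.
Hmgcs1: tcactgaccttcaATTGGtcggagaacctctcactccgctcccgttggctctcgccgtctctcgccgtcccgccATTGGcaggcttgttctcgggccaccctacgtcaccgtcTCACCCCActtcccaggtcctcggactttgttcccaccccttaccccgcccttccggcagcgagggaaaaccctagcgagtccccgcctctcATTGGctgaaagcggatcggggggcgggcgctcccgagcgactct
Idi1: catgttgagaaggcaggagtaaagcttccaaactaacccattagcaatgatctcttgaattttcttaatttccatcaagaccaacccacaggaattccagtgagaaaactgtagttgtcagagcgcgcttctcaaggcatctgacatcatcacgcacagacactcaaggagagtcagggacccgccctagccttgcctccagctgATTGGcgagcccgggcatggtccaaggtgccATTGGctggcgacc
Cyp51: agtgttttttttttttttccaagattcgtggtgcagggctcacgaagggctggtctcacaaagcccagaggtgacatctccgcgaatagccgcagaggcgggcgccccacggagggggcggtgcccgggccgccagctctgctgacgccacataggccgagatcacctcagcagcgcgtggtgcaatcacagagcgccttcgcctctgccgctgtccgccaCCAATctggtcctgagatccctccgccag
Msmo1: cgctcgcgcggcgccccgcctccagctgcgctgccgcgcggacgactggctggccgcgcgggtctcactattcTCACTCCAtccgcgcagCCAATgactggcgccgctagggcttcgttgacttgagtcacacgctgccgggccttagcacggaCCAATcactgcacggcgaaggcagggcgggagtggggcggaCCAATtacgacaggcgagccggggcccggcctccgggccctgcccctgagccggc
Srebf2: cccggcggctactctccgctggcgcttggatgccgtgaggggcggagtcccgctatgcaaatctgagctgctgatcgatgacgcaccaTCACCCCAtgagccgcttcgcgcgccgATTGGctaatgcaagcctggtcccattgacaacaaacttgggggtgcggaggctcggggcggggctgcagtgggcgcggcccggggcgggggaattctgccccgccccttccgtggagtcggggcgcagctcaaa
Of the 34 measured genes, 27 had a promoter entry, with 36 promoters. The sterol enzymes had 17 promoters from 14 genes, and Fdps, Fdft1 and Sqle had no entry. A CCAAT box lay in 14 of these 17 promoters (82.4%), and in 33.8% of all 32851 promoters of that length. The box also lay in promoters of Mvk, Ebp, Dhcr7 and Tm7sf2, which were not called between genotypes. The sterol element lay in 2 of the 17 promoters (11.8%), those of Hmgcs1 and Msmo1, against 3.67% of all promoters, and it also lay in that of Srebf2. Only this form of the element was searched, so a promoter without a match, such as that of Cyp51, may hold another form. Among fatty acid synthesis genes 1 of 5 promoters held a CCAAT box and 0 of 5 the sterol element. A TCACNCCA match can share its last letters with a CCAAT box, and none of the printed ones did. These are matches of letters, not measured binding.

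At the top of the route, Hmgcs1, which makes HMG-CoA, measured 11.15 and 11.47 with LPS+IL-10 in p50-/-IL10-/- cells, against 11.91 and 12.21 in IL10-/- cells. With LPS alone it measured 11.13 and 10.82 in p50-/-IL10-/- cells, against 11.93 and 12.33 in IL10-/- cells. Unstimulated cells had 10.92 and 10.52 without p50 and 11.33 and 11.50 in IL10-/-. The genotypes did not overlap under any of the 3 conditions, and the difference with LPS was -1.16 ± 0.187 (2.23-fold lower, adjusted p = 0.00302). All 4 Hmgcs1 probe sets were negative there, at -1.16 to -0.78.

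The kinases that follow moved less. Mvk, mevalonate kinase, lay between 7.65 and 8.08 on all 12 arrays and was not called in any comparison. Pmvk, the next kinase, was called lower with LPS+IL-10 by -0.43 ± 0.134 (adjusted p = 0.0484), a call lost in all 4 refits. Mvd, the decarboxylase, measured 6.65 and 6.74 with LPS in p50-/-IL10-/- cells, against 7.21 and 8.04 in IL10-/- cells. The SD of its IL10-/- arrays with LPS was 0.586, and the call (-0.93 ± 0.225) was lost in 3 of 4 refits. The name of its probe set marks probes shared with other transcripts, as does that of Lss.

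The isoprenoid steps showed the pattern at greater size than the kinases Mvk and Pmvk. Idi1, which isomerises isopentenyl diphosphate, measured 9.01 and 8.48 with LPS in p50-/-IL10-/- cells, against 9.79 and 10.03 in IL10-/- cells. Its difference of -1.16 ± 0.218 (adjusted p = 0.00659) was -1.10 by the other probe set. Fdps, which makes farnesyl diphosphate, measured 8.77 and 9.45 with LPS+IL-10 in p50-/-IL10-/- cells, against 10.16 and 10.29 in IL10-/- cells (-1.12 ± 0.229, adjusted p = 0.00826). That Fdps call ended in 2 of 4 refits, with an adjusted p of up to 0.0657 without array 1 of the p50-/-IL10-/- LPS+IL-10 group. Its other probe set was dim, at a mean of 4.07.

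Squalene synthesis and its first oxidation followed. Fdft1, squalene synthase, measured 7.93 and 7.68 with LPS in p50-/-IL10-/- cells, against 8.68 and 9.24 in IL10-/- cells (-1.15 ± 0.203, adjusted p = 0.00477). Its 4 probe sets disagreed, with -1.51 by a second one and 0.09 and 0.03 by the dimmer pair. With LPS+IL-10 Fdft1 differed by -0.72 ± 0.203, against -1.18 by that second one and 0.37 and 0.16 by the dimmer pair. This Fdft1 call was lost in 3 of 4 refits and with the mean of all probe sets. Sqle, squalene epoxidase, measured 8.97 and 9.37 with LPS+IL-10 in p50-/-IL10-/- cells, against 10.29 and 10.32 in IL10-/- cells (-1.13 ± 0.151, adjusted p = 0.000788). With LPS alone Sqle measured 8.96 and 8.60 in p50-/-IL10-/- cells, against 9.66 and 9.95 in IL10-/- cells (-1.03 ± 0.151, adjusted p = 0.00183). Unstimulated Sqle was near equal, at 9.05 and 9.12 without p50 and 9.06 and 9.14 in IL10-/- cells. Sqle was the single sterol enzyme called lower in all 4 refits under both stimuli.

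After squalene, the call was shared by some enzymes and not by others. Lss, which closes the sterol ring, was lower with LPS by -0.58 ± 0.147 (adjusted p = 0.0266), a call lost in 2 of 4 refits, and with LPS+IL-10 it was -0.39 ± 0.147 (adjusted p = 0.0957). Cyp51, the lanosterol demethylase, measured 8.33 and 7.71 with LPS in p50-/-IL10-/- cells, against 9.14 and 9.53 in IL10-/- cells. This was the sterol enzyme with the largest fall, -1.31 ± 0.254 (2.48-fold, adjusted p = 0.0077), and its call was lost in 2 of 4 refits, with an adjusted p of up to 0.0597 without array 2 of the IL10-/- LPS group. Msmo1, a methylsterol oxidase, measured 9.67 and 9.27 with LPS in p50-/-IL10-/- cells, against 10.34 and 10.71 in IL10-/- cells (-1.05 ± 0.175, adjusted p = 0.00347). Its unstimulated arrays were 10.00 and 9.82 without p50 and 10.10 on both in IL10-/- cells.

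Hsd17b7, a sterol ketone reductase, was lower by -0.73 ± 0.142 with LPS and by -0.50 ± 0.142 with LPS+IL-10, and each call ended in 2 of 4 refits. Sc5d, a sterol desaturase, measured 8.54 and 8.20 with LPS in p50-/-IL10-/- cells, against 9.09 and 9.69 in IL10-/- cells (-1.02 ± 0.224, adjusted p = 0.014). The Sc5d call was lost in 2 of 4 refits, with an adjusted p of up to 0.0972 without array 2 of the IL10-/- LPS group, and its other, dimmer probe set gave -0.08. Nsdhl, the partner of Msmo1 in removing methyl groups, was called lower with LPS+IL-10 by -0.28 ± 0.0856, a call lost in all 4 refits. Tm7sf2, a sterol reductase, was not called in any comparison. Ebp and Dhcr7, an isomerase and the last reductase of the route, were not called between genotypes. Ebp differed by -0.22 ± 0.0955 with LPS+IL-10 and 0.10 ± 0.0955 with LPS, and Dhcr7 by -0.28 ± 0.143 with LPS+IL-10 and 0.10 ± 0.143 with LPS. With LPS+IL-10 all 17 sterol enzymes had a negative difference by the probe set used, as had 5330 of all 12393 genes. Mvk, Fdps, Fdft1 and Sc5d each had another probe set with a positive difference there.

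The number of calls depended on single arrays. The share of all genes called in the same refits is not given, here or for the refit counts below. These counts therefore do not tell a change among members from a change among all genes. With LPS, the 11 sterol enzymes became 5 without array 2 of the IL10-/- group, 12 without its array 1, 9 without array 1 of the p50-/-IL10-/- group and 6 without its array 2. With LPS+IL-10, the 12 became 1 without array 1 of the p50-/-IL10-/- group, 9 without its array 2, 8 without array 1 of the IL10-/- group and 2 without its array 2. Over all members, the 17 calls with LPS became 8 without array 2 of the IL10-/- group, 11 without array 1 of the p50-/-IL10-/- group and 8 without its array 2. The 19 with LPS+IL-10 became 4 and 12 without array 1 and array 2 of the p50-/-IL10-/- group, and 11 and 6 without those of the IL10-/- group. Hmgcs1, Idi1, Fdft1, Sqle and Msmo1 held in every refit with LPS.

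The sterol enzymes also differed together between the arrays of a group. In p50-/-IL10-/- cells, 14 of 17 were higher on array 2 with LPS+IL-10 (median 0.32 log2), while 13 of 17 were higher on array 1 with LPS (median of array 2 minus array 1 -0.26). In IL10-/- cells, 14 of 17 were higher on array 2 with LPS+IL-10 (median 0.12) and 15 of 17 with LPS (median 0.28). The medians of all genes were between -0.01 and 0.02. The enzymes are therefore not independent observations within a group.

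**Figure D3:**
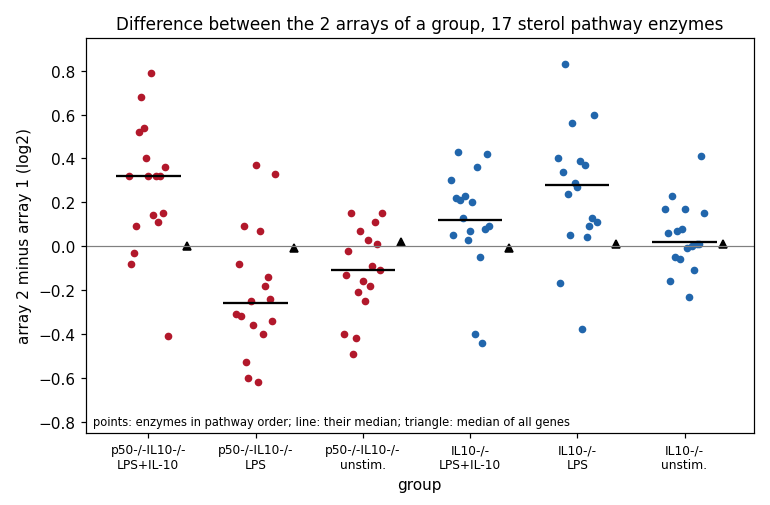
Points are the log2 value on array 2 minus that on array 1 for each of the 17 sterol enzymes in each group, lines are their medians and triangles the medians of all 12393 genes. Enzymes lie mostly on one side of 0 in the 4 stimulated groups, with medians of -0.26 to 0.32.

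Markers of other cell types moved with genotype as well. The 5 measured neutrophil markers had list means of 7.65 with LPS+IL-10, 7.72 with LPS and 7.53 unstimulated in p50-/-IL10-/- cells, against 8.11, 8.27 and 8.24 in IL10-/- cells, and 3, 5 and 4 of them were called lower. The 4 stromal markers had list means of 5.98, 5.73 and 5.67 in p50-/-IL10-/- cells, against 6.60, 6.72 and 6.58 in IL10-/- cells, and 1, 2 and 1 of them were called lower. Of 3 dendritic cell markers, 2 were called higher without p50 with LPS+IL-10, Flt3 by 0.27 ± 0.083 and Zbtb46 by 0.23 ± 0.0697. Zbtb46 and Xcr1 were dim in all 6 groups. Of all genes, 7.58% were called higher without p50 and 10.4% lower with LPS+IL-10, 5.66% and 6.72% with LPS, and 1.26% and 1.31% unstimulated. Single macrophage markers also moved, in opposite directions: Mertk was higher without p50 by 1.62 ± 0.194 with LPS+IL-10 and 1.29 ± 0.194 with LPS, and Adgre1 was lower (-0.57 ± 0.0975 and -0.63 ± 0.0975). Itgam was lower with LPS+IL-10 (-1.05 ± 0.234) and Cd68 higher with LPS (0.30 ± 0.0814). In IL10-/- cells the stromal mean was higher on array 2 (6.81, 7.05 and 6.87) than on array 1 (6.38, 6.40 and 6.30). The part of these cells in the sterol differences was not tested, and in such bulk RNA fewer cells of a type and less RNA per cell cannot be told apart.

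LPS itself raised part of the sterol pathway in IL10-/- cells. Of 17 enzymes, 8 rose and 2 fell, where 7.76% of all genes were called higher and 17.1% lower. In p50-/-IL10-/- cells 1 rose and 2 fell, where 10.3% were called higher and 22.1% lower. Over all members 4 rose and 8 fell in p50-/-IL10-/- cells and 12 rose and 4 fell in IL10-/- cells, where 32.4% and 24.8% of all genes were called in either direction. The median change of the 17 was -0.11 in p50-/-IL10-/- cells and 0.42 in IL10-/- cells, against -0.01 for all genes in each. These comparisons share their LPS arrays with the genotype comparison, so they are not separate evidence for it. Without array 2 of the unstimulated group, the 3 sterol enzymes called in p50-/-IL10-/- cells became 1 and the 12 members 6, and in IL10-/- cells the 10 enzymes became 6 and the 16 members 10.

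Idi1 rose in both genotypes, by 1.05 ± 0.218 in p50-/-IL10-/- cells (adjusted p = 0.00347) and by 1.40 ± 0.218 in IL10-/- cells (adjusted p = 0.000833). Its unstimulated arrays were 7.94 and 7.45 without p50 and 8.53 and 8.48 in IL10-/- cells, all below the LPS arrays of the same genotype. Cyp51 rose by 1.34 ± 0.254 in IL10-/- cells (2.53-fold, adjusted p = 0.00287) and changed by 0.68 ± 0.254 in p50-/-IL10-/- cells (adjusted p = 0.0653). Its unstimulated arrays were 7.47 and 7.22 without p50 and 8 and 7.99 in IL10-/- cells. Sc5d, Hsd17b7 and Sqle rose in IL10-/- cells by 1.17, 0.68 and 0.71, and these 3 calls held in all 4 refits.

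Hmgcs1, Fdps and Fdft1 also rose in IL10-/- cells, by 0.72, 0.74 and 0.83, and each call ended in at least 2 of those refits. The count of enzymes that rose in IL10-/- cells was 5 without array 2 of the LPS group. Ebp and Dhcr7, near the end of the route, moved the other way: Ebp changed by -0.39 ± 0.0955 in p50-/-IL10-/- cells and by -0.37 ± 0.0955 in IL10-/- cells, and Dhcr7 by -0.57 ± 0.143 in p50-/-IL10-/- cells and -0.59 ± 0.143 in IL10-/- cells, all called lower. Each of these 4 calls ended in 2 or 3 of 4 refits. Both Ebp calls also ended when arrays were centred on their medians.

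The difference between genotypes in the LPS response was tested directly. limma called 0 of 34 members, where 1.19% of all genes were called (0.734% higher, 0.452% lower), and 11 of 34 members (32.4%) had an unadjusted p under 0.05, where 10% of all genes had one. The 0 became 3 and 2 without array 1 and array 2 of the IL10-/- LPS group, and 1 without array 1 of the unstimulated IL10-/- group. Sqle came close, at -1.02 ± 0.213 (95% interval -1.49 to -0.54, adjusted p = 0.0544), with 0.71 in IL10-/- cells and -0.31 ± 0.151 (adjusted p = 0.153) in p50-/-IL10-/- cells. Msmo1 was at -0.86 ± 0.248 (adjusted p = 0.18). Of the 17 sterol enzymes 16 had a negative value, as had 6615 of all 12393 genes. The median was -0.43 for these enzymes and -0.01 for all genes.

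**Figure D4:**
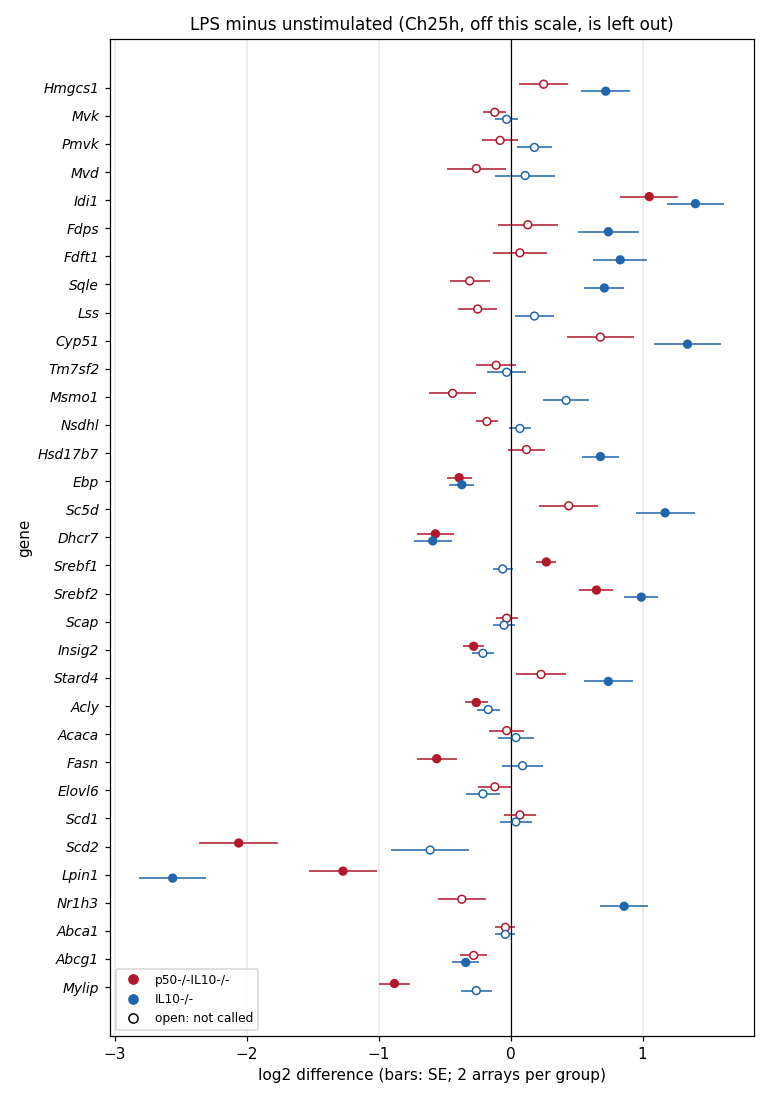
Points are log2 differences of LPS minus unstimulated cells, with p50-/-IL10-/- and IL10-/- cells in separate colours, bars are SE (2 arrays per group), and open points were not called. Ch25h, which rose by 5.69 in p50-/-IL10-/- cells and 4.92 in IL10-/- cells, is left out. Lpin1 and Scd2 have the largest falls, and Idi1 the largest rise among the genes drawn.

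Adding IL-10 to LPS moved few members. In p50-/-IL10-/- cells limma called 0 of 34, where 6.57% of all genes were called (3.7% higher, 2.87% lower). There 6 of 34 members (17.6%) had an unadjusted p under 0.05, below the 23.4% of all genes. It called 2 in IL10-/- cells, Mylip and Ch25h, both lower, where 6.17% of all genes were called (3.35% higher, 2.82% lower). The count of 2 became 6 without array 2 of the IL10-/- LPS group and 1 without any other of the 4 arrays, and the 1 left without array 2 of the LPS+IL-10 group was neither Mylip nor Ch25h. The 0 in p50-/-IL10-/- cells became 1 without array 1 of its LPS+IL-10 group. No sterol enzyme was called by limma in either genotype. At an unadjusted p under 0.05 there were 4 of 17 (23.5%) in p50-/-IL10-/- and 3 of 17 (17.6%) in IL10-/- cells, all higher, shares near those of all genes (23.4% and 17%, with 14.9% and 9.65% higher). The sterol enzymes had a median of 0.23 in p50-/-IL10-/- cells, where all genes had 0.05, and 0.14 in IL10-/- cells, where all genes had 0.01. Sqle stood at 0.39 ± 0.151 in p50-/-IL10-/- cells (adjusted p = 0.153) and 0.50 ± 0.151 in IL10-/- cells (adjusted p = 0.094). Pmvk stood at 0.39 ± 0.134 in p50-/-IL10-/- cells (adjusted p = 0.118) and 0.45 ± 0.134 in IL10-/- cells (adjusted p = 0.0897). The genotype difference of the IL-10 effect was called for 0 of 34 members by limma, where 0.137% of all genes were called (0.0968% higher, 0.0403% lower). At an unadjusted p under 0.05 there were 3 of 34 (8.82%), where all genes had 11.7%.

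Set against unstimulated cells, LPS+IL-10 raised 5 and lowered 2 of 17 sterol enzymes in p50-/-IL10-/- cells, where 16.7% of all genes were called higher and 21.2% lower. It raised 10 and lowered 1 in IL10-/- cells, where 6.94% and 12.5% were called. Over all members 9 rose and 8 fell in p50-/-IL10-/- cells and 14 rose and 5 fell in IL10-/- cells, where 37.9% and 19.5% of all genes were called in either direction. Sqle rose in IL10-/- cells by 1.21 ± 0.151, Fdps by 1.11 ± 0.229 and Fdft1 by 1.01 ± 0.203, calls that held in all 4 refits. Sqle was not called in p50-/-IL10-/- cells (0.08 ± 0.151). In p50-/-IL10-/- cells Idi1 (1.29 ± 0.218) and Dhcr7 (-0.85 ± 0.143) held in all 4 refits, and the 7 calls became 3 without array 2 of either group and 4 without array 1 of the unstimulated group, while the 17 members became 10 without array 2 of either group. In IL10-/- cells the 11 sterol calls became 7 without array 2 of either group, and the 19 members became 12 without array 2 of the unstimulated group. The difference between these 2 responses was not tested as such. Markers of other cells moved in the same comparison in p50-/-IL10-/- cells, where 3 of 3 dendritic cell, 2 of 2 erythroid, 1 of 3 B cell and 1 of 5 neutrophil markers were called higher. The dendritic cell markers Zbtb46 and Xcr1 were dim in every group. In IL10-/- cells 1 of 5 neutrophil markers was called lower. The part of these cells in the sterol changes was not tested.

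Of the genes of SREBP control, Srebf2, which encodes the sterol-pathway SREBP, rose with LPS in both genotypes. It measured 9.26 and 9.12 with LPS and 8.71 and 8.37 unstimulated in p50-/-IL10-/- cells (0.65 ± 0.129, adjusted p = 0.00283). The IL10-/- arrays read 9.62 and 9.55 with LPS and 8.64 and 8.53 unstimulated (0.99 ± 0.129, adjusted p = 0.00027). The LPS arrays lay above the unstimulated arrays in each genotype, and the calls held in all 4 refits. Its other probe set gave smaller changes, of 0.32 in p50-/-IL10-/- cells and 0.39 in IL10-/- cells. Between genotypes Srebf2 was not called, at -0.12 ± 0.129 with LPS+IL-10 and -0.39 ± 0.129 (adjusted p = 0.0777) with LPS.

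Srebf1, the SREBP gene best known for fatty acid synthesis, ran otherwise. It measured 9.49 and 9.58 with LPS+IL-10 in p50-/-IL10-/- cells, against 9.25 and 9.30 in IL10-/- cells, a difference of 0.26 ± 0.0742 (adjusted p = 0.035) opposite in sign to the sterol enzymes. That call ended in all 4 refits. Its LPS change was 0.27 ± 0.0742 in p50-/-IL10-/- cells (called) and -0.06 ± 0.0742 in IL10-/- cells (not called), and the difference between these was not called (0.33 ± 0.105, adjusted p = 0.251). The first of these calls ended in 3 of 4 refits. LPS+IL-10 against unstimulated raised Srebf1 by 0.35 ± 0.0742 in p50-/-IL10-/- cells (adjusted p = 0.00445), and this call held in all 4.

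Scap, the escort of SREBPs, measured 9.13 and 9.11 with LPS+IL-10 in p50-/-IL10-/- cells, against 8.76 and 8.88 in IL10-/- cells (0.30 ± 0.0822, adjusted p = 0.0299), a call lost in all 4 refits. Insig2, which retains SCAP, lay between 7.91 and 8.26 on all arrays by the probe set used. Its calls with LPS (-0.28) and LPS+IL-10 (-0.24) in p50-/-IL10-/- cells were lost in 3 of 4 and in all 4 refits, and under median centring. For LPS+IL-10 against unstimulated there, its other probe sets gave -0.61 (mean 6.74) and -0.19 (mean 8.05). Between genotypes with LPS+IL-10 they gave -0.55 and -0.22, where the one used gave -0.20. Stard4, a sterol carrier protein, rose with LPS in IL10-/- cells by 0.74 ± 0.186 (adjusted p = 0.0139), a call lost in 2 of 4 refits. In p50-/-IL10-/- cells Stard4 changed by 0.23 ± 0.186 (adjusted p = 0.422). Its other probe set, with a mean of 7.49, gave larger LPS changes, of 0.72 in p50-/-IL10-/- cells and 1.29 in IL10-/- cells. Between genotypes that probe set gave 0.17 with LPS+IL-10, 0.27 with LPS and 0.84 unstimulated, where the one used gave -0.45, -0.50 and 0.01. It was not tested singly, so the response of Stard4 without p50 is uncertain.

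Of the 7 fatty acid synthesis genes, 4 fell with LPS in p50-/-IL10-/- cells (Acly, Fasn, Scd2 and Lpin1) and 1 in IL10-/- cells (Lpin1), where 22.1% and 17.1% of all genes were called lower. The Fasn call was lost in 3 of 4 refits. Lpin1, a phosphatidate phosphatase of glycerolipid synthesis and a transcriptional coregulator, had the largest fall of all members. It measured 6.77 and 6.47 with LPS+IL-10, 7.02 and 6.95 with LPS and 8.12 and 8.39 unstimulated in p50-/-IL10-/- cells. The IL10-/- arrays read 6.32 and 7.09, 7.15 and 7.79, and 9.88 and 10.18 under the same conditions.

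Lpin1 fell with LPS by 1.27 ± 0.254 in p50-/-IL10-/- cells (2.41-fold, adjusted p = 0.00286) and by 2.56 ± 0.254 in IL10-/- cells (5.90-fold, adjusted p = 4.52e-05). The genotypes were apart before stimulation, by -1.77 ± 0.254 (adjusted p = 0.00424), the one member called in unstimulated cells (-1.50 by its other probe set), and without array 1 of the p50-/-IL10-/- group the adjusted p was 0.0504. With LPS+IL-10 the arrays of the 2 genotypes overlapped (-0.09 ± 0.254). The genotype difference of the LPS effect was 1.29 ± 0.36 and not called (adjusted p = 0.165).

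Scd2, a stearoyl-CoA desaturase, measured 5.58 and 6.40 with LPS+IL-10 and 5.71 and 5.55 with LPS in p50-/-IL10-/- cells, against 7.85 and 8.26, and 6.51 and 7.39 in IL10-/- cells. Unstimulated arrays overlapped, at 7.84 and 7.54 without p50 and 7.46 and 7.65 in IL10-/- cells. Scd2 fell by 2.06 ± 0.298 with LPS in p50-/-IL10-/- cells (4.17-fold, adjusted p = 0.000352), and its change was -0.61 ± 0.298 (adjusted p = 0.177) in IL10-/- cells. The other 2 probe sets gave much smaller changes with LPS in p50-/-IL10-/- cells, of -0.49 and 0.01, the second of them dim at a mean of 4.85. The genotype difference was -2.06 ± 0.298 with LPS+IL-10 (adjusted p = 0.00131) and -1.32 ± 0.298 with LPS (adjusted p = 0.0161). The value with LPS lost its call in 3 of 4 refits, with an adjusted p of 0.106 without array 2 of the IL10-/- LPS group. Between genotypes those probe sets also gave smaller differences, of -0.99 and -0.30 with LPS+IL-10 and -0.09 and -0.11 with LPS.

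Fasn, fatty acid synthase, measured 7.32 on both arrays with LPS+IL-10 in p50-/-IL10-/- cells, against 8.20 and 8.35 in IL10-/- cells (-0.95 ± 0.153, adjusted p = 0.00226). With LPS it measured 7.16 and 6.89 in p50-/-IL10-/- cells, against 7.71 and 8.23 in IL10-/- cells (-0.95 ± 0.153, adjusted p = 0.00298). Both calls held in all 4 refits, and the unstimulated difference was -0.30 ± 0.153 (adjusted p = 0.444). Acly, which supplies acetyl-CoA, was called lower with LPS in p50-/-IL10-/- cells (-0.26 ± 0.0859), a call lost in 2 of 4 refits. It was also lost under median centring, with the mean of all probe sets, with the replicate block and in a fit of the compared groups alone. Acly probe sets with means of 9.67 and 8.33 gave -0.40 and 0.01 there. Elovl6, a fatty acid elongase, lay between 5.78 and 6.36 and was not called. The dim Acaca and Scd1 give little: Acaca was not called, and Scd1 was called once, at 0.36 ± 0.12 for LPS+IL-10 against unstimulated in p50-/-IL10-/- cells, and the call ended in 3 of 4 refits.

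**Figure D5:**
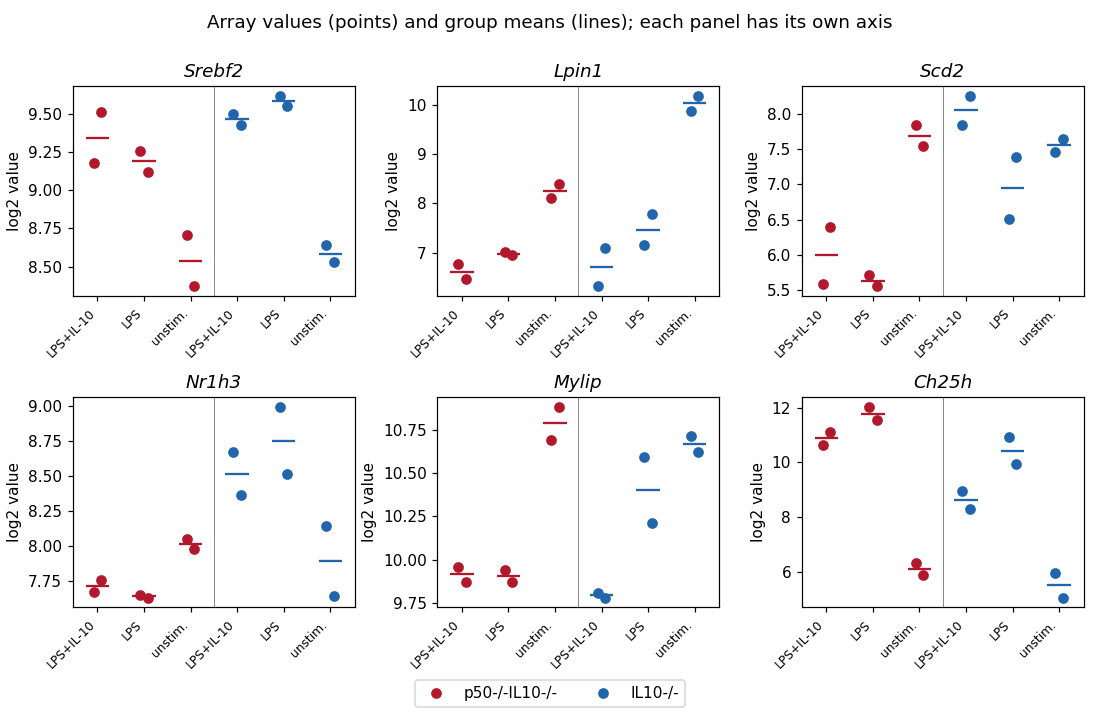
Points are the log2 values of the 2 arrays of each group and lines the group means, for Srebf2, Lpin1, Scd2, Nr1h3, Mylip and Ch25h, each with its own axis. The p50-/-IL10-/- groups are left of the IL10-/- groups. Scd2 and Nr1h3 separate the genotypes under both stimuli, and Ch25h is highest in p50-/-IL10-/- cells given LPS.

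Among LXR and efflux genes, Nr1h3, which encodes LXR alpha, was lower without p50 in stimulated cells. It measured 7.65 and 7.63 with LPS in p50-/-IL10-/- cells, against 8.99 and 8.51 in IL10-/- cells (-1.11 ± 0.181, adjusted p = 0.0031), a call that held in all 4 refits. With LPS+IL-10 it measured 7.67 and 7.76 in p50-/-IL10-/- cells, against 8.67 and 8.36 in IL10-/- cells (-0.80 ± 0.181, adjusted p = 0.0131). That call ended in 3 of 4 refits. Unstimulated arrays overlapped, at 8.05 and 7.98 without p50 and 8.14 and 7.64 in IL10-/- cells.

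LPS raised Nr1h3 by 0.86 ± 0.181 in IL10-/- cells (adjusted p = 0.00536), and without array 2 of the unstimulated IL10-/- group the adjusted p was 0.0536. In p50-/-IL10-/- cells the change was -0.37 ± 0.181 (adjusted p = 0.153). The difference between these was -1.23 ± 0.255 (95% interval -1.79 to -0.66) with an adjusted p of 0.0522.

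The exporters that LXR is known to switch on were measured beside it. Abca1, a cholesterol exporter, lay between 12.23 and 12.52 on all 12 arrays by its brightest probe set, which was not called in any comparison and differed between genotypes with LPS by -0.11 (95% interval -0.28 to 0.06). Its other 2 probe sets, with means of 9.43 and 7.71, disagreed with that one and were like each other. They gave 0.32 and 0.56 between genotypes with LPS, and -0.27 and -0.16 with LPS+IL-10. For LPS+IL-10 against unstimulated they gave 0.38 and 0.47 in p50-/-IL10-/- cells and 0.97 and 1.24 in IL10-/- cells, where the brightest gave 0.02 and 0.07. They were not tested singly, so the direction of Abca1 is uncertain. Abcg1, another exporter, measured 10.95 on both arrays with LPS in p50-/-IL10-/- cells, against 10.63 and 10.28 in IL10-/- cells (0.50 ± 0.104, adjusted p = 0.0116). That call ended in 3 of 4 refits, and the one with LPS+IL-10 (0.36 ± 0.104) in all 4. Unstimulated Abcg1 differed by 0.43 ± 0.104 (adjusted p = 0.0604). With LPS+IL-10 against unstimulated, Abcg1 changed by -0.49 ± 0.104 in p50-/-IL10-/- cells and by -0.42 ± 0.104 in IL10-/- cells, both called, the second lost in all 4 refits.

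Mylip, a ubiquitin ligase that degrades lipoprotein receptors, measured 9.96 and 9.87 with LPS+IL-10, 9.94 and 9.87 with LPS and 10.69 and 10.88 unstimulated in p50-/-IL10-/- cells. In IL10-/- cells it measured 9.81 and 9.78, 10.59 and 10.21, and 10.71 and 10.62. With LPS it fell by 0.88 ± 0.118 in p50-/-IL10-/- cells (adjusted p = 0.000207), and in IL10-/- cells the change was -0.26 ± 0.118 (adjusted p = 0.149). With IL-10 added it fell by 0.61 ± 0.118 in IL10-/- cells (adjusted p = 0.0113) and the change was 0.01 ± 0.118 in p50-/-IL10-/- cells. The IL-10 call ended in 3 of 4 refits, with adjusted p up to 0.0731. With LPS+IL-10 the genotypes differed by 0.12 ± 0.118 and with LPS by -0.50 ± 0.118, a call lost in 3 of 4 refits. Neither genotype difference of a response was called, at -0.62 ± 0.166 for LPS (adjusted p = 0.144) and 0.62 ± 0.166 for IL-10 (adjusted p = 0.254).

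Ch25h, cholesterol hydroxylase, had higher values without p50, where most sterol enzymes had lower ones. It measured 10.65 and 11.11 with LPS+IL-10, 12.03 and 11.55 with LPS and 6.32 and 5.90 unstimulated in p50-/-IL10-/- cells. In IL10-/- cells it measured 8.95 and 8.28, 10.93 and 9.94, and 5.97 and 5.05. The order of group means was p50-/-IL10-/- LPS (11.79), p50-/-IL10-/- LPS+IL-10 (10.88), IL10-/- LPS (10.43), IL10-/- LPS+IL-10 (8.61), unstimulated p50-/-IL10-/- (6.11) and unstimulated IL10-/- (5.51). The arrays of p50-/-IL10-/- LPS+IL-10 and IL10-/- LPS overlapped, as did those of the unstimulated groups.

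LPS raised Ch25h by 5.69 ± 0.379 in p50-/-IL10-/- cells (adjusted p = 1.89e-06) and by 4.92 ± 0.379 in IL10-/- cells (adjusted p = 7.55e-06), where the second size is uncertain because the unstimulated mean was dim. With IL-10 added it fell by 1.82 ± 0.379 in IL10-/- cells (adjusted p = 0.0166), a call lost in 2 of 4 refits, and the change was -0.91 ± 0.379 (adjusted p = 0.182) in p50-/-IL10-/- cells. The difference between these was 0.91 ± 0.536 (95% interval -0.27 to 2.10) and not called. Between genotypes Ch25h was higher without p50 by 2.27 ± 0.379 with LPS+IL-10 (4.83-fold, adjusted p = 0.00283), in all 4 refits. With LPS it was higher by 1.36 ± 0.379 (adjusted p = 0.0411), a call lost in 3 of 4 refits, with an adjusted p of up to 0.24 without array 2 of the IL10-/- LPS group.

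Over the 6 group means, among 1557 genes whose means spanned at least 1 log2, those most like Ch25h were Peli1 (Pearson r = 0.999), Tnfaip3 (0.999) and Cd274 (0.998). Peli1 encodes a ubiquitin ligase of Toll-like receptor signalling, Tnfaip3 an inhibitor of NF-kB and Cd274 the ligand PD-L1. These correlations describe 6 means that share their arrays, and no p is attached.

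Neighbouring lipid genes gave a mixed picture. Of 10 measured genes of fatty acid oxidation, 7 fell with LPS in p50-/-IL10-/- cells and 5 in IL10-/- cells, where 22.1% and 17.1% of all genes were called lower, with a median change of the list of -0.29 in p50-/-IL10-/- cells and -0.26 in IL10-/- cells. Acadm, a medium-chain dehydrogenase, fell by 0.71 ± 0.114 in p50-/-IL10-/- cells and 0.95 ± 0.114 in IL10-/- cells. Cpt2, which takes acyl groups into mitochondria, fell by 0.67 ± 0.094 in p50-/-IL10-/- cells and 0.39 ± 0.094 in IL10-/- cells, the second call lost in 2 of 4 refits. Cpt1a, the gatekeeper of that route, was higher without p50 under all 3 conditions, by 0.82 ± 0.0843 with LPS+IL-10, 0.48 ± 0.0843 with LPS and 0.44 ± 0.0843 unstimulated, the last of these calls lost in all 4 refits.

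Of 15 other genes of fatty acid and glycerolipid synthesis, 2 rose and 3 fell with LPS in p50-/-IL10-/- cells, and 3 rose and 3 fell in IL10-/- cells. These are 33.3% and 40% of the list, where 32.4% and 24.8% of all genes were called. Fads1, a fatty acid desaturase, fell by 0.99 ± 0.104 in p50-/-IL10-/- cells and 0.97 ± 0.104 in IL10-/- cells. Acsl5, an acyl-CoA synthetase, rose by 1.02 ± 0.0957 in IL10-/- cells. Acss2, which makes acetyl-CoA from acetate and is a known SREBP target, was higher without p50 by 0.70 ± 0.112 with LPS (adjusted p = 0.00282) and 0.67 ± 0.112 unstimulated (adjusted p = 0.0106), opposite in sign to most sterol enzymes, and the unstimulated call was lost in 3 of 4 refits.

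Of 12 genes of sterol uptake, lysosomal export and storage, 2 were higher and 2 lower without p50 with LPS, where 5.66% of all genes were called higher and 6.72% lower. Msr1, a scavenger receptor, differed by -0.67 ± 0.0977, and Fabp4, a fatty acid carrier, by 0.94 ± 0.259, both called, the second lost in 3 of 4 refits. Npc1, which exports cholesterol from lysosomes, was lower without p50 with LPS+IL-10 (-0.76 ± 0.138), and Stard3, a sterol transfer protein of late endosomes, was higher (0.94 ± 0.193), a call lost in 2 of 4 refits. Adding IL-10 to LPS raised Msr1 by 0.59 ± 0.0977 in p50-/-IL10-/- cells, a call lost in 2 of 4 refits, and by 0.65 ± 0.0977 in IL10-/- cells. Both of these calls were lost with the mean of all probe sets. Among 7 other genes of oxysterol handling, Hsd3b7, which acts on oxysterols on the way to bile acids, fell with LPS by 1.11 ± 0.0898 in p50-/-IL10-/- cells and 0.72 ± 0.0898 in IL10-/- cells, and Cyp27a1, a sterol hydroxylase, fell by 0.86 ± 0.153 in IL10-/- cells.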

How the data were processed

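Gene expression of macrophage cultures was measured on Affymetrix arrays, 12 in all, 2 for each of 6 groups. The deposited table holds log2 values for 22690 probe sets, and RMA and limma are named, with no version or role, in the submitters' processing notes. Probe sets with 1 gene symbol (20380) were reduced to 1 per gene, taking the brightest on average, which left 12393 genes. Groups came from the labels. limma 3.58.1 (R 4.3.3) was fitted to the 6 group means over all 12 arrays, with two-sided tests and Benjamini-Hochberg adjustment over all genes in each of 11 contrasts at 0.05. With 2 arrays a group, 10.5 degrees of freedom in all limit the precision, and an exact permutation test of 2 against 2 arrays cannot go below p = 0.333. In simulated data for the LPS effect in IL10-/- cells (12393 genes), 61 of 100 changes of 0.5 log2 and 95 of 100 of 1 log2 were recovered, with 12 false calls. The simulated noise was independent between genes, and a far smaller share of genes was changed than was called in the real comparison. These figures may therefore not carry over to enzymes that differ together between arrays. Alternatives were each array left out, a replicate block, median centring, an intensity trend, the mean of probe sets and a fit of the compared groups alone.

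Members and lists were chosen with earlier results of these data known. All members were described. Of other lists, at most the 2 called genes with the largest difference per list and contrast were named.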

Additional observations from a re-analysis of the deposited data

How the results depend on the processing

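Every one of the 103 member calls kept its direction in all alternatives. With 1 array left out, 260 of 412 refitted calls stayed past the threshold and 152 did not. Under the other alternatives 683 of 720 stayed and 37 did not. The cause of a change was not tested, except that a fit of the compared groups alone uses fewer arrays. Counts under the alternatives, here and above, are given without the share of all genes called in the same fit. They therefore do not tell a change among members from a change among all genes.

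Leaving out each array in turn gave ranges of counts. For members, then sterol enzymes, they were 6 to 10 and 1 to 3 for the LPS effect in p50-/-IL10-/- cells, 10 to 14 and 6 to 7 for it in IL10-/- cells, 0 to 1 and 0 for the IL-10 effect in p50-/-IL10-/- cells, and 1 to 6 and 0 to 2 for it in IL10-/- cells. LPS+IL-10 against unstimulated gave 10 to 15 and 3 to 7 in p50-/-IL10-/- cells and 12 to 15 and 7 to 10 in IL10-/- cells. Loss of p50 gave 4 to 12 and 1 to 9 with LPS+IL-10, 8 to 18 and 5 to 12 with LPS, and 0 to 1 and 0 unstimulated. The genotype differences gave 0 to 3 and 0 to 1 for the LPS effect and 0 to 1 and 0 for the IL-10 effect.

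Same-numbered arrays deviated together in the IL10-/- groups (correlations of 0.398 to 0.595) and not throughout the p50-/-IL10-/- groups (-0.492 to 0.28), so the numbers were not taken as pairs. With the replicate block, the members called became 1, against 0, for the IL-10 effect in p50-/-IL10-/- cells, 5, against 2, for it in IL10-/- cells, 4, against 1, for p50 loss unstimulated and 3, against 0, for the genotype difference of the LPS effect. Sterol enzymes became 2 and 1, against 0, for these last comparisons. With the block and crossed numbers in the p50-/-IL10-/- LPS+IL-10 group, chosen after seeing the data, the counts were 7 sterol enzymes for LPS in p50-/-IL10-/- cells, 7 members and 6 enzymes for IL-10 in p50-/-IL10-/- cells, 8 and 3 for IL-10 in IL10-/- cells, 8 and 5 for p50 loss unstimulated, 10 and 4 for the genotype difference of the LPS effect, and 1 member for that of the IL-10 effect.

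A fit of only the compared groups gave 6 sterol enzymes, against 3, for LPS in p50-/-IL10-/- cells, 0 members, against 2, for IL-10 in IL10-/- cells, 3 members and 1 enzyme, against 1 and 0, for p50 loss unstimulated, and 11 members, against 17, for p50 loss with LPS. The mean of all probe sets gave 4 members, against 2, for IL-10 in IL10-/- cells. Centring arrays on their medians moved the median of all genes in the LPS effect of p50-/-IL10-/- cells to 0.12, against -0.01. It ended 8 of the 103 calls: those of Ebp with LPS in both genotypes, and all those of Insig2 and of Acly. The others were Abcg1 with LPS and Dhcr7 with LPS+IL-10 against unstimulated, both in IL10-/- cells. Dim probe sets limit Acaca, Scd1 and unstimulated Ch25h.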
